A study of Mus musculus with 11 samples.

Results

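The genes described here are 4 subunits of class I phosphoinositide 3-kinase (PI3K), Pik3ca, Pik3cb, Pik3r1 and Pik3r2, and 4 phosphatases that act against PI3K and AKT signalling, Phlpp1, Phlpp2, Inpp4b and Inpp5d. They were taken by gene symbol from the deposited count files and make up 8 of the 24490 genes counted. Inpp4b and Inpp5d encode lipid phosphatases, whereas Phlpp1 and Phlpp2 encode protein phosphatases that take a phosphate off AKT itself, so the set is called PI3K subunits and phosphatases throughout. The cells were primary ovarian granulosa cells, the somatic cells that surround the oocyte and make estradiol, from mice of the RjOrl:SWISS strain. The sources used here give neither the age of the mice nor the number pooled. All groups received 30 pmol of siRNA with Lipofectamine RNAiMax, a lipid carrier, had the transfection mix exchanged for medium after 5 h, and were lysed for RNA at 30 h. The control group, called scramble, received a nontargeting siRNA and has 3 libraries. Each of 4 knockdown groups, called pools 1 to 4, received 3 of 4 siRNAs against Akt1 and has 2 libraries. Going from pool 1 to pool 4, the siRNA left out was number 9, 7, 8 and 6, if the protocol and the sample names number the pools alike. Nothing in the labels says whether the replicates came from separate cultures, and the spread behind each p-value may therefore be technical.

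PI3K turns a membrane lipid into the second messenger PIP3 when a growth factor or hormone receptor is active, and PIP3 brings AKT to the membrane, where it is activated. A class I enzyme pairs a catalytic subunit, such as those encoded by Pik3ca and Pik3cb, with a regulatory subunit that holds it inactive until a receptor or adaptor binds, such as those encoded by Pik3r1 and Pik3r2. The phosphatases counter this at different steps: INPP5D (also known as SHIP1) converts PIP3, INPP4B acts on the lipid made from it, and PHLPP1 and PHLPP2 inactivate AKT directly. In granulosa cells this pathway is known to mediate responses to follicle-stimulating hormone and insulin-like growth factor. The design asks what a loss of Akt1 mRNA does to the transcripts of the genes above it.

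The sequences shown are the 250 bases before the RefSeq start of Pik3cb and Phlpp2, the 2 genes with higher CPM in all 8 pool libraries than in any scramble library, and of Inpp5d, which was at or near 0 counts. They are from RefSeq on build GRCm38.p6, 5′ to 3′ on the strand of the gene, with CpG dinucleotides in capitals. The window of Pik3cb is chr9:99140212-99140461 on the minus strand, that of Phlpp2 is chr8:109868353-109868602 on the plus strand and that of Inpp5d is chr1:87620062-87620311 on the plus strand. The gene spans given below come from another annotation, GENCODE. By those spans the Pik3cb window lies inside the gene, and the Phlpp2 window runs past the start of the gene.
Pik3cb: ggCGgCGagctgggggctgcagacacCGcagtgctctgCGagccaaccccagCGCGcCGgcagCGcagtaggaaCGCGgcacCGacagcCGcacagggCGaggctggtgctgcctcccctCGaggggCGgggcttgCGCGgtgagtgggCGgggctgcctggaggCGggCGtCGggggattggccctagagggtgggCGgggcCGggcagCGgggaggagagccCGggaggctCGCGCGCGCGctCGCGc
Phlpp2: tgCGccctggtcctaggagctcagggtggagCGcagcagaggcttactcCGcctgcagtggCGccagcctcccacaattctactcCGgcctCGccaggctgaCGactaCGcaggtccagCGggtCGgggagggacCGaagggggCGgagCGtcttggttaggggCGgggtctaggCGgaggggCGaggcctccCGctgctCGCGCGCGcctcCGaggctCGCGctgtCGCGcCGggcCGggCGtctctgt
Inpp5d: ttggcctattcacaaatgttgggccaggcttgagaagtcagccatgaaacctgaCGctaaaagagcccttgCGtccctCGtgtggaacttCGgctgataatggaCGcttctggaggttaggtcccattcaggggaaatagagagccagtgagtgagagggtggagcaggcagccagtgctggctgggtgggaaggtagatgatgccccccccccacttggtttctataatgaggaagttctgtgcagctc
The Pik3cb window holds 32 CpG and is 78.0% G or C, and the Phlpp2 window holds 29 CpG and is 72.4% G or C. The Inpp5d window holds 5 CpG and is 54.4% G or C, against medians of 6 CpG and 52.4% over all RefSeq windows of this length. The gene with the fewest reads among the 8 therefore has a promoter window near the genome's median in CpG content, and Pik3cb and Phlpp2 have CpG-rich ones. Of the other members, Phlpp1 (31), Pik3r2 (29), Pik3ca (19) and Inpp4b (19) also lay above that median, and Pik3r1 has 2 starts in the table, with 30 and 6 CpG. The windows were searched on both strands for TGTTTAC (bound by FOXO factors), CAAGGTCA (bound by NR5A receptors), TGACGTCA (the cAMP response element) and CACGTG (an E-box). None of the 4 motifs was in any of the 9 windows of the members. Over all 32851 windows they occurred in 3.17%, 1.33%, 1.55% and 6.02%, and no motif is contained in another.

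The libraries held between 23851293 and 32643158 reads in genes. Akt1, the target, was at 399 to 529 CPM (counts per 1000000 reads in genes) in scramble and at 52.7 to 81.7 CPM in the pools, which fits the labels of all 11 libraries. Scramble replicate 1 differed from the other scramble libraries along transcript length: its median log2 ratio to them was 1.14 in the bin of the shortest transcripts (median merged exon length 859 bases) and −1.23 in the longest (median 10809 bases). Tests against scramble are therefore given with and without it. Of the markers of granulosa cells, 8 of 10 were above 1 CPM in scramble. Fshr, the gene of the follicle-stimulating hormone receptor, and Amh were not. Over the 11 libraries they were at 0.0669 to 0.367 and 0.210 to 0.827 CPM. The summed level of the 10 markers was 3163 to 4124 CPM in scramble, 2835 to 3064 in pool 2, 2502 to 2701 in pools 1 and 4, and 1991 to 2135 in pool 3. Most of that sum was Inha, with means of 2657 CPM in scramble and 1701 CPM in the pools. Inhba and Nr5a2 had higher means in the pools, at 351 and 121 CPM against 312 and 104 CPM over the 3 scramble libraries. The 8 markers of theca and stroma cells summed to 1927 to 3310 CPM in scramble, 2142 to 2208 in pool 2, 1360 to 1458 in pools 1 and 4, and 1098 to 1143 in pool 3. Most of that sum was Acta2, a smooth muscle actin gene, and the other 7 genes summed to 278 to 346 CPM in scramble, 310 to 337 in pool 2, 320 to 337 in pools 1 and 4, and 252 to 263 in pool 3. The 6 surface epithelium markers, all above 1 CPM, summed to 142 to 182 CPM in scramble, 149 to 154 in pool 2 and 101 to 128 in the other pools. In bulk RNA, fewer cells of a type and less RNA per cell cannot be told apart.

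Compared per length, as CPM per kb of merged exons averaged over the 11 libraries, Pik3r2 had the highest level of the 8 genes at 29.7. Pik3r1 followed at 13.0, Pik3ca at 10.8 and Pik3cb at 7.84. The phosphatase genes were lower, with Phlpp2 at 5.14, Phlpp1 at 3.21, Inpp4b at 0.0227 and Inpp5d at 0.0163. From Pik3r1 down to Phlpp1 each gene overlapped its neighbour in this order over the libraries, as did Inpp4b and Inpp5d. Within each library, all 4 PI3K subunit genes were above all 4 phosphatase genes on this scale. Inpp4b and Inpp5d had at most 17 reads in any library.

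**Figure D1:**
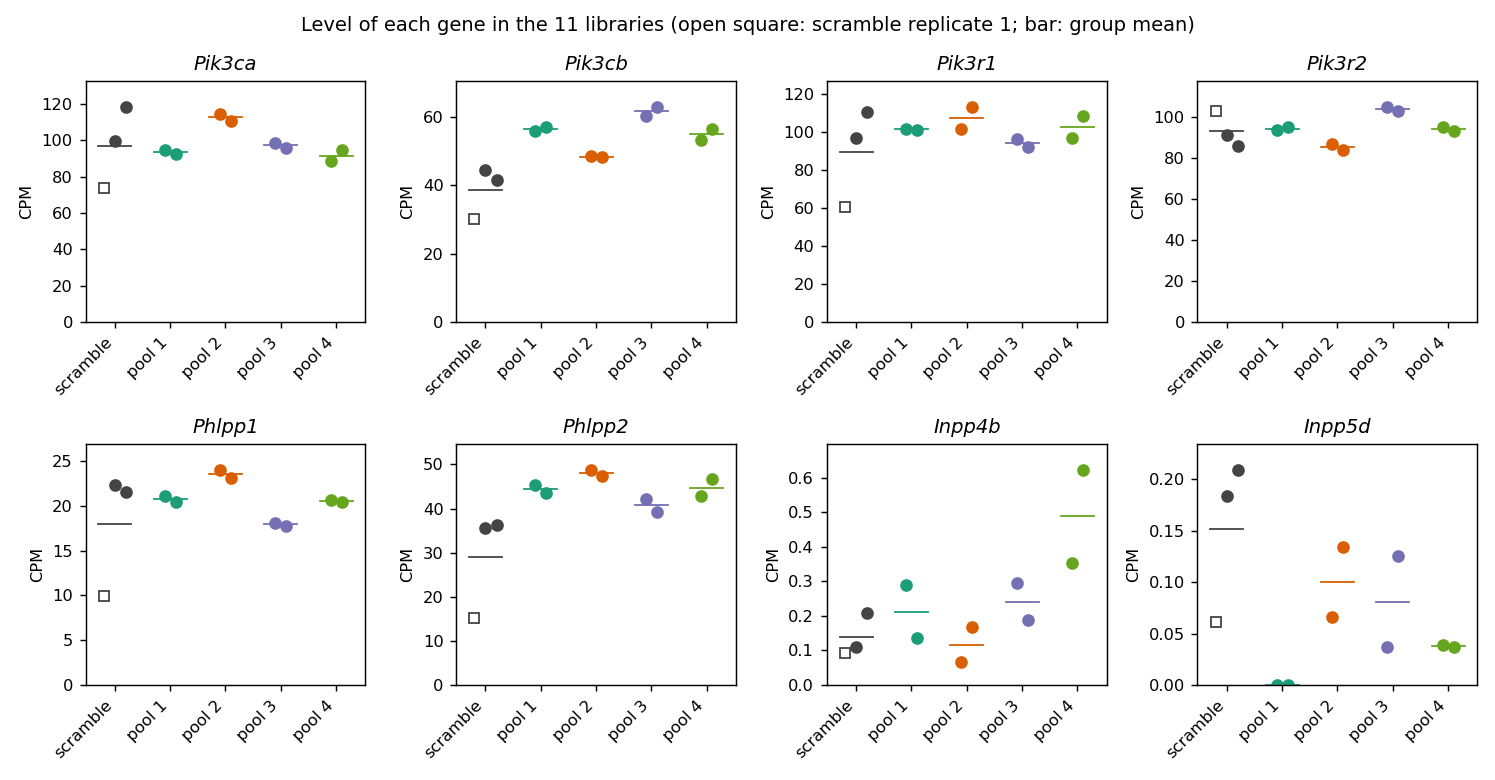
Level of each of the 8 genes in CPM (y axis, from 0, with its own scale in each panel) in the 3 scramble libraries and the 2 libraries of each Akt1 siRNA pool (points), with the group mean as a bar and scramble replicate 1 as an open square. Pik3cb and Phlpp2 are higher in all 8 pool libraries than in every scramble library, and scramble replicate 1 is the lowest scramble library for every gene shown except Pik3r2.

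Of the catalytic subunit genes, Pik3cb was higher in every pool library than in scramble, and Pik3ca stayed within the scramble range. Pik3cb (chr9:99036654-99140621, minus strand, build mm10), which encodes the catalytic subunit beta, was at 30.1, 44.5 and 41.7 CPM in scramble replicates 1, 2 and 3. It was at 55.8 and 56.9 CPM in pool 1, 48.5 and 48.2 in pool 2, 60.3 and 62.9 in pool 3, and 53.2 and 56.6 in pool 4. All 8 pool libraries lay above all 3 scramble libraries, with pool 2 the nearest to scramble and pool 3 the farthest. Such a separation upwards was seen for 2 of the 8 members, Pik3cb and Phlpp2, and for 6.89% of the 14144 genes that passed the filter on low counts; against scramble replicates 2 and 3 alone it was seen for the same 2 members and for 12.7% of genes.

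The mean of Pik3cb was 38.7 ± 7.63 CPM in scramble (SD, n = 3; 43.1 ± 1.97 without replicate 1) and 55.3 ± 5.20 over the pools (SD, n = 8). Genes were called where edgeR's quasi-likelihood test gave a Benjamini-Hochberg adjusted p below 0.05 over all genes tested. With all libraries, none of the 7 members that passed the filter (Inpp4b through its pool 4 libraries alone) was called between all pools and scramble, where 0.00707% of genes, which is Akt1 alone, were called. The log2 fold change of Pik3cb was 0.47 ± 0.12 (SE; edgeR adjusted p = 0.108), and without scramble replicate 1 it was 0.30 ± 0.08 (edgeR adjusted p = 0.119), where 0.469% of genes were called and no member was. At an unadjusted edgeR p below 0.05, 2 of the 7 members passed with all libraries and 2 without scramble replicate 1. No share of all genes at this unadjusted threshold is set beside these counts, so nothing about the members is read from them. DESeq2 called Pik3cb alone among the members in both cases, with adjusted p = 0.017 and 0.026 (8.44% and 4.71% of genes with an adjusted p). In the authors' deposited table of the same comparison, where 9.72% of genes with an adjusted p are below 0.05, Pik3cb has a log2 fold change of 0.44 with a standard error of 0.12 and an adjusted p of 0.0147.

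Taken by pool with all libraries, Pik3cb was called in pool 3 alone, at a log2 fold change of 0.60 ± 0.16 (SE; edgeR adjusted p = 0.0468). The shares of all genes called in pools 1 to 4 in this fit were 1.93%, 0.00707%, 11.2% and 2.57%. The call held without scramble replicate 1 or 2 and was lost without scramble replicate 3 (edgeR adjusted p = 0.0525) and without any 1 of the 8 pool libraries (edgeR adjusted p from 0.0874 to 0.246). In the fit without scramble replicate 1, Pik3cb rose in pool 1 by 0.32 ± 0.05 (edgeR adjusted p = 8.25e-05), in pool 3 by 0.43 ± 0.05 (edgeR adjusted p = 8.49e-07) and in pool 4 by 0.29 ± 0.05 (edgeR adjusted p = 0.000281) on the log2 scale. In pool 2 it was higher by 0.15 ± 0.05 and not called (edgeR adjusted p = 0.137). The shares of all genes called in pools 1 to 4 without scramble replicate 1 were 28.8%, 4.39%, 48.8% and 31.0%.

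Pik3ca (chr3:32397671-32468486, plus strand), which encodes the catalytic subunit alpha, was at 73.5, 99.4 and 118 CPM in scramble replicates 1, 2 and 3. It was at 94.5 and 92.4 CPM in pool 1, 114 and 111 in pool 2, 98.2 and 96.0 in pool 3, and 88.6 and 94.4 in pool 4. Every pool library lay within the range of the 3 scramble libraries, and the 6 libraries of pools 1, 3 and 4 lay below scramble replicates 2 and 3. Over all pools and libraries its log2 fold change was −0.02 ± 0.14 (SE; edgeR adjusted p = 0.930). Pik3ca fell in pools 1, 3 and 4 without scramble replicate 1, by 0.29 ± 0.06, 0.25 ± 0.06 and 0.31 ± 0.06 on the log2 scale (SE; edgeR adjusted p = 0.000956, 0.00140 and 0.000440). In pool 2 the difference was 0.03 (edgeR adjusted p = 0.848). With all 11 libraries the spread in scramble was larger than these differences and no pool was called for Pik3ca.

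**Figure D2:**
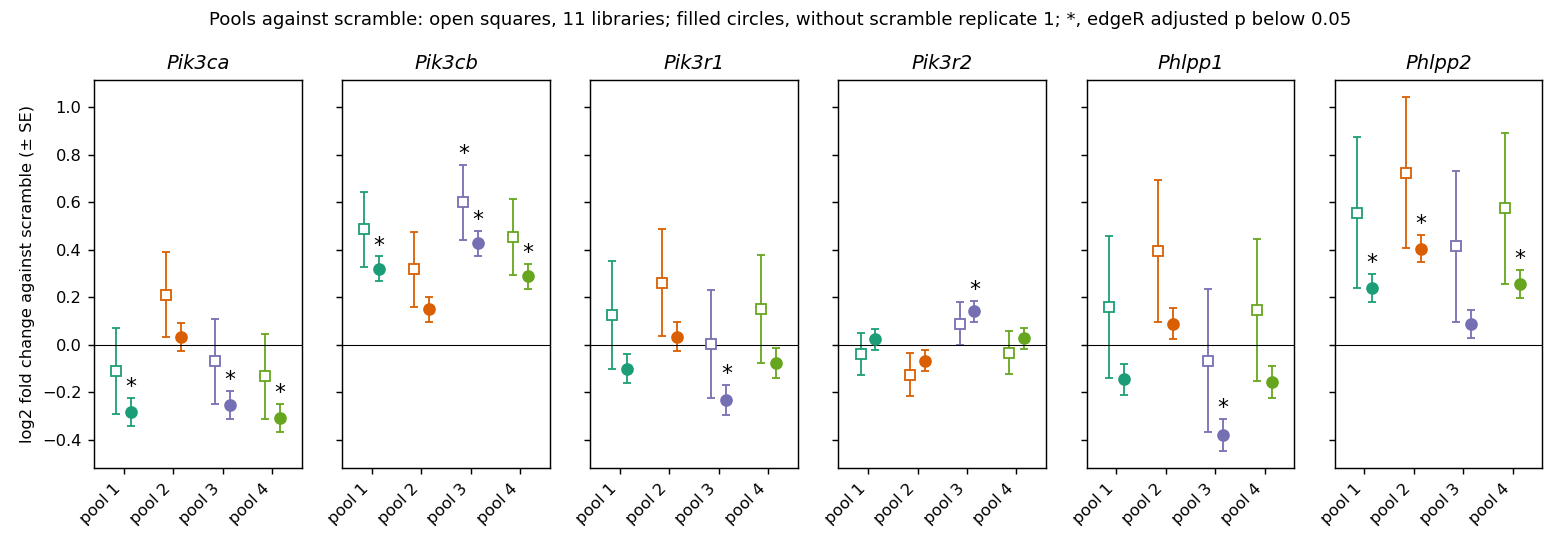
Log2 fold change of each pool against scramble (y axis, points with SE bars) for the 6 genes above 5 CPM, from all 11 libraries (open squares) and without scramble replicate 1 (filled circles), with an asterisk where the edgeR adjusted p was below 0.05. All 8 values of Pik3cb and of Phlpp2 are above 0, and the bars are shorter without scramble replicate 1.

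As a share of the summed CPM per kb of the 4 class I catalytic subunit genes, Pik3cb made up 20.1 ± 1.34% in scramble (SD, n = 3) and 27.6 ± 1.82% in pools 1, 3 and 4 (SD, n = 6). In pool 2 the share was 21.1% and 21.6%, within the scramble range of 19.1% to 21.6%. The share of Pik3ca was 35.8 ± 3.24% in scramble and 30.9% to 36.3% in the pools. Pik3cd, the catalytic subunit delta, best known from leukocytes, had the largest share at 44.1 ± 3.22% in scramble and 40.9 ± 2.97% over the pools, while Pik3cg, the subunit gamma, had 0.0464% and 0.0458%. Transcripts of alpha, beta and delta were thus all abundant in these cells. The 14 leukocyte markers summed to 7.77 to 12.1 CPM in scramble and 7.65 to 13.8 CPM in the pools, Pik3cd was at 61.2 to 74.1 CPM in scramble, and the part of leukocytes in its level was not tested.

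Neither regulatory subunit was called between all pools and scramble. Pik3r1 (chr13:101680563-101768217, minus strand) encodes the regulatory subunit alpha, which binds phosphorylated receptors and adaptors. It was at 60.3, 97.0 and 111 CPM in scramble, and the pools ranged from 91.8 CPM in pool 3 to 113 CPM in pool 2. The pool libraries overlapped scramble, with scramble replicate 1 far below the other 10 libraries. Its log2 fold change over all pools was 0.14 ± 0.15 with all libraries (SE; edgeR adjusted p = 0.543) and −0.09 ± 0.09 without scramble replicate 1 (edgeR adjusted p = 0.520), so that library sets its sign. Without it, Pik3r1 fell in pool 3 by 0.23 ± 0.06 on the log2 scale (edgeR adjusted p = 0.00427) and was called in no other pool.

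Pik3r2 (chr8:70768176-70776713, minus strand), the regulatory subunit beta, varied little. Its SD over the libraries was 7.59% of its mean, the lowest of the 6 genes above 5 CPM, and 7.34% without scramble replicate 1, where Pik3r1 had 6.77%. It was at 103, 90.9 and 85.7 CPM in scramble and between 83.7 CPM in pool 2 and 105 CPM in pool 3, and the groups overlapped. The mean was 93.2 ± 8.84 CPM in scramble (SD, n = 3) and 94.2 ± 7.06 CPM in the pools (SD, n = 8). It has the shortest transcript of the 8, 3165 bases, and alone among those 6 genes had its highest scramble value in replicate 1, by 0.22 on the log2 scale. Its log2 fold change over all pools was −0.03 ± 0.08 (SE; edgeR adjusted p = 0.829). It rose in pool 3 alone once scramble replicate 1 was left out, by 0.14 ± 0.04 (edgeR adjusted p = 0.0116).

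Of the PHLPP phosphatase genes, Phlpp2 was higher in every pool library than in scramble and Phlpp1 was not. Phlpp2 (chr8:109868542-109944671, plus strand) was at 15.2, 35.6 and 36.4 CPM in scramble replicates 1, 2 and 3. It was at 45.4 and 43.5 CPM in pool 1, 48.8 and 47.5 in pool 2, 42.2 and 39.2 in pool 3, and 42.9 and 46.6 in pool 4. All 8 pool libraries were above every scramble library, with pool 2 highest and pool 3 lowest, the reverse of the order for Pik3cb. Scramble replicate 1 was lower than replicates 2 and 3 by 1.22 on the log2 scale, the widest gap among the members above 5 CPM.

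The log2 fold change of Phlpp2 over all pools was 0.57 ± 0.22 with all libraries (SE; edgeR adjusted p = 0.133) and 0.25 ± 0.09 without scramble replicate 1 (edgeR adjusted p = 0.178), neither of them called. In the authors' deposited table it is 0.47 with a standard error of 0.19 and no p, as for 2526 genes there with a mean above 0. By pool, without scramble replicate 1, Phlpp2 rose in pools 1, 2 and 4, by 0.24 ± 0.06, 0.40 ± 0.06 and 0.26 ± 0.06 on the log2 scale (edgeR adjusted p = 0.00396, 0.000165 and 0.00232). In pool 3 it was higher by 0.09 and not called (edgeR adjusted p = 0.237). With all libraries Phlpp2 was called in no pool by edgeR on the uncorrected counts. With each library corrected for its trend with transcript length it was called higher in pools 1 and 4 (edgeR adjusted p = 0.0478 and 0.0390), where 9.05% and 10.8% of genes were called.

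Phlpp1 (chr1:106171752-106394250, plus strand) was at 9.89, 22.3 and 21.6 CPM in scramble replicates 1, 2 and 3. The pools ranged from 17.8 CPM in pool 3 to 24.1 CPM in pool 2 and overlapped scramble. Its log2 fold change over all pools was 0.17 ± 0.21 with all libraries (SE; edgeR adjusted p = 0.593) and −0.14 ± 0.12 without scramble replicate 1 (edgeR adjusted p = 0.484). Without that library Phlpp1 fell in pool 3 by 0.38 ± 0.07 (edgeR adjusted p = 8.70e-05), where Phlpp2 was 0.09 higher, and was called in no other pool. The difference between the 2 genes' changes was not tested.

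Scramble replicate 1 was low for the 5 long members among the 6 above 5 CPM and high for the short one. On the scale of log2(CPM + 0.5), relative to the mean of replicates 2 and 3 it was lower by 0.56 for Pik3ca, 0.51 for Pik3cb, 0.78 for Pik3r1, 1.11 for Phlpp1 and 1.22 for Phlpp2. These 5 genes have merged exons of 6226 to 9068 bases, against 3165 for Pik3r2. Fold changes against scramble that include this library are shifted upwards for the long members, and the values without it rest on 2 control libraries.

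**Figure D3:**
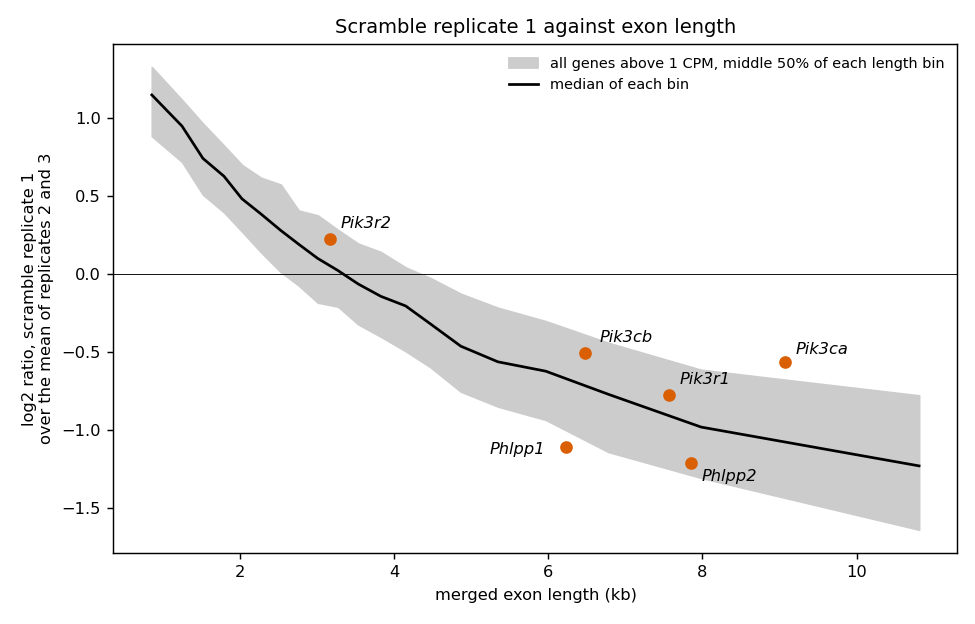
Log2 ratio of scramble replicate 1 to the mean of scramble replicates 2 and 3 (y axis) against merged exon length in kb (x axis): black line, median of all genes above 1 CPM by length bin; grey band, the middle 50% of each bin; orange points, the 6 members above 5 CPM. The line falls from 1.14 to −1.23, and 5 of the 6 members are below 0.

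A ratio of 2 members within a library does not depend on the library's size. Among the 15 ratios of the 6 genes above 5 CPM, 4 did not overlap between the 3 scramble and the 8 pool libraries, against 10.1% of all pairs of genes above 5 CPM. Against scramble replicates 2 and 3 alone it was 5 of 15, against 18.4% of pairs. The ratios were computed after the values had been seen and share members with each other. An exact permutation test was also run on each of them, and its p-values are not reported here.

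Phlpp1 over Phlpp2 was 0.651, 0.626 and 0.594 in scramble replicates 1, 2 and 3 and 0.429 to 0.493 in the pools. Scramble replicate 1 lay close to the other scramble libraries in this ratio, unlike in either gene alone. Pik3cb over Pik3r2 was 0.292, 0.489 and 0.487 in scramble and 0.558 to 0.613 in the pools. Pik3ca over Phlpp2 was 2.79 to 4.84 in scramble and 2.02 to 2.45 in the pools, and Pik3r1 over Phlpp2 was 2.73 to 3.97 and 2.08 to 2.38. Of the 4 ratios, 3 have Phlpp2 as the denominator.

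**Figure D4:**
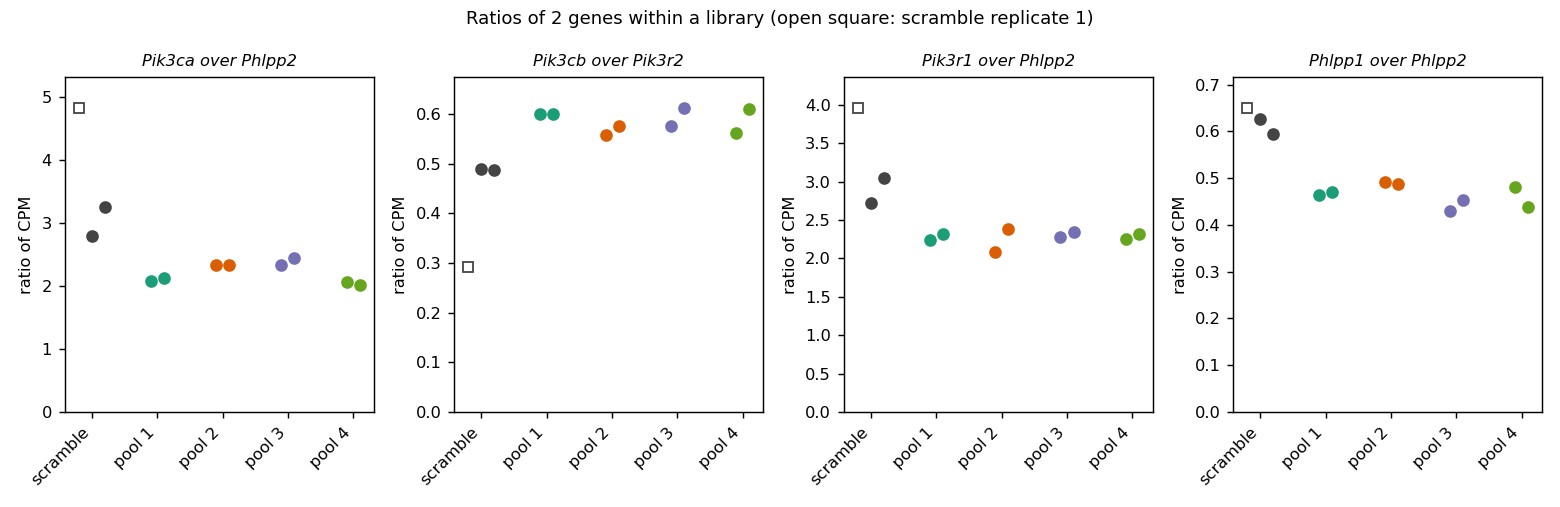
The 4 within-library ratios of CPM (y axes, from 0) whose scramble and pool libraries do not overlap, by group, with each library as a point and scramble replicate 1 as an open square. Phlpp1 over Phlpp2 is 0.594 to 0.651 in scramble and 0.429 to 0.493 in the pools.

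The lipid phosphatase genes Inpp4b and Inpp5d were near the limit of detection. Inpp4b (chr8:81342556-82127914, plus strand) had 3, 3 and 5 reads in scramble and 9 and 4 in pool 1, 2 and 5 in pool 2, 8 and 6 in pool 3, and 9 and 17 in pool 4. Pool 4 held the 2 highest libraries, at 0.352 and 0.624 CPM, above every scramble library, while pools 1, 2 and 3 overlapped scramble. Summed over libraries it was at 0.132 CPM in scramble (exact 95% Poisson interval 0.0657 to 0.235, 11 reads) and 0.257 CPM in the pools (0.196 to 0.331, 60 reads), intervals that cover counting error only. An exact two-sided permutation test over the 11 libraries gave p = 0.273. Those 2 libraries were the only ones above the level the filter asks for, 0.338 CPM at the median library size, so Inpp4b was tested at all only because it was high in pool 4, and a call there carries no weight. Its log2 fold change in pool 4 without scramble replicate 1 was 1.56 ± 0.59 (SE). The edgeR adjusted p was 0.0481, with 0.0633 without the filter and 0.0393 with the length correction, and DESeq2 gave no adjusted p.

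Inpp5d (chr1:87620312-87720507, plus strand), best known from blood cells, did not pass the filter. It had 2, 5 and 5 reads in scramble, 0 and 0 in pool 1, 2 and 4 in pool 2, 1 and 4 in pool 3, and 1 and 1 in pool 4. The 0 counts of pool 1 allow up to 0.0963 and 0.101 CPM (3 counts). Summed, it was at 0.143 CPM in scramble (exact 95% Poisson interval 0.0741 to 0.251) and 0.0558 CPM in the pools (0.0297 to 0.0954), a lower level on 12 and 13 reads. The exact two-sided permutation test over 165 arrangements gave p = 0.0303, and 0.0222 without scramble replicate 1, the smallest p that 45 arrangements can give. These 2 genes were the only single genes tested in this way, beside the 15 ratios of members. The test treats the libraries as exchangeable, although the pool libraries form 4 groups of 2. All 8 pool libraries lay below scramble replicates 2 and 3 for Inpp5d. The same held for 5.29% of the 14144 genes that passed the filter, which Inpp5d did not. Tested over all pools among all genes without the filter, its log2 fold change was −1.35 and edgeR's adjusted p was 0.266 (0.259 without scramble replicate 1). In pool 1, where both libraries were at 0, the same unfiltered test called it lower without scramble replicate 1 (edgeR adjusted p = 0.0157, with 22.0% of genes called) and not with it (edgeR adjusted p = 0.201). The leukocyte markers were low throughout, with Ptprc, which defines them, at 0 to 0.134 CPM, and their part in the Inpp5d reads was not tested.

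Between pools, Pik3ca, Pik3r1, Phlpp1 and Phlpp2 had their highest mean in pool 2, whereas Pik3cb and Pik3r2 had their lowest mean in pool 2 and their highest in pool 3. The 6 members above 5 CPM differed among the 4 pools without scramble replicate 1, by edgeR's test with 3 degrees of freedom, where 42.8% of genes did. The adjusted p was 6.21e-05 for Phlpp1, 0.000138 for Pik3ca, 0.00101 for Phlpp2, 0.00120 for Pik3cb, 0.00460 for Pik3r2 and 0.0116 for Pik3r1. With all 11 libraries none of the 6 was called, where 2.46% of genes were, in a fit whose shared estimate of spread includes scramble replicate 1. In the 8 pool libraries fitted alone the 6 were called again, where 48.6% of genes were. Inpp4b, tested only through pool 4, is left out of these counts.

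Pool 2 exceeded the mean of the other pools, without scramble replicate 1, in Pik3ca by 0.32 ± 0.05, in Phlpp1 by 0.32 ± 0.05, in Phlpp2 by 0.21 ± 0.05 and in Pik3r1 by 0.17 ± 0.05 on the log2 scale (SE; edgeR adjusted p = 1.40e-05, 4.22e-05, 0.000734 and 0.00899). It was lower in Pik3cb, by −0.20 ± 0.04, and in Pik3r2, by −0.13 ± 0.04 (edgeR adjusted p = 0.000703 and 0.00577). These are all 6 members above 5 CPM, where 43.7% of genes were called; with all libraries none was, where 5.25% were. Pool 2 is the one without siRNA 7, if the numbering holds.

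Pool 3 was lower than the mean of the others in Phlpp1, Phlpp2 and Pik3r1, by −0.31, −0.21 and −0.18, and higher in Pik3cb and Pik3r2, by 0.17 and 0.15 (edgeR adjusted p = 0.000134, 0.00112, 0.00682, 0.00177 and 0.00214), 5 of 6 members where 39.6% of genes were called. With all libraries no member was called in this comparison, where 1.83% of genes were. Pools 1 and 4 gave no called member against the mean of the others, where 1.73% and 1.49% of genes were called (0.0141% and 0.0% with all libraries). Pools 2 and 3 enter each other's reference here. The summed granulosa markers (mostly Inha), the summed surface epithelium markers and Acta2 were highest in pool 2 and lowest in pool 3, as were Phlpp1, Phlpp2 and Pik3r1. The sum of the 7 endothelial markers, of which 4 or 5 were above 1 CPM, went the way of Pik3cb and Pik3r2. It was 17.5 to 19.9 CPM in pool 2 and 24.8 to 26.2 in pool 3. Single endothelial markers moved both ways between scramble and pools. Mean Kdr was 4.36 CPM in scramble and 7.54 in the pools, Emcn 7.24 and 5.60, and Egfl7 7.38 and 5.79. The sums of the leukocyte markers, 3 or 4 of them above 1 CPM, were 7.65 to 9.74 CPM in pool 2 and 12.3 to 13.8 in pool 3. The part of any of these cell types in the differences was not tested.

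The other genes of the pathway were listed by role. With all libraries and all pools against scramble, none of the 6 lists (5, 5, 21, 11, 7 and 12 genes tested, in the order given next) held a gene that edgeR called. List medians of the log2 fold change were 0.26 for other class I PI3K genes, 0.27 for class II and III PI3K genes, 0.14 for inositol lipid phosphatases, 0.03 for phosphoinositide kinases, 0.25 for adaptors and −0.06 for regulators of AKT activation. The median was 0.15 over the 6 members above 5 CPM and −0.02 over all genes tested. Without scramble replicate 1 the same medians were 0.03, −0.04, −0.05, −0.03, −0.02 and 0.02, with −0.030 for those 6 members and 0.00 for all genes.

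Over all pools, 2 listed genes were called without scramble replicate 1. Pik3ip1, which encodes a membrane protein that inhibits the PI3K catalytic subunit, was at 13.8 and 14.3 CPM in scramble replicates 2 and 3 and at 20.4 to 26.1 CPM in the pools. It rose by 0.69 ± 0.11 on the log2 scale (SE; edgeR adjusted p = 0.0355), and scramble replicate 1, at 18.6 CPM, was also below all 8 pool libraries. Gab1, an adaptor that binds the regulatory subunits, had 37.8, 52.9 and 52.0 CPM in scramble and from 63.3 to 74.5 CPM in the pools, and rose by 0.35 ± 0.05 (edgeR adjusted p = 0.0295).

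Between pools without scramble replicate 1, 13 of 21 inositol lipid phosphatase genes, 5 of 7 adaptor genes and 6 of 12 AKT regulator genes differed, against 42.8% of all genes. The same held for 2 of 5 other class I genes, 2 of 5 class II and III genes and 4 of 11 phosphoinositide kinase genes. Inpp5j and Inpp5a, which encode phosphatases of inositol lipids and of soluble inositol phosphates respectively, were called with all 11 libraries too (edgeR adjusted p = 0.0261 and 0.0445). Inpp5j was at 57.2 to 62.9 CPM in scramble and averaged 44.6, 54.2, 31.8 and 39.5 CPM in pools 1 to 4. It fell in pools 3 and 4 against scramble with all libraries, by 0.97 ± 0.10 and 0.64 ± 0.10 (SE; edgeR adjusted p = 0.0013 and 0.0201). Its order of pools is that of Pik3ca, Phlpp1 and Phlpp2 in having pool 2 highest.

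Upstream of AKT, Pdpk1, the kinase that phosphorylates AKT at the membrane, averaged 87.7, 112, 77.9 and 88.2 CPM in pools 1 to 4, against 106 CPM in scramble replicates 2 and 3 and 32.2 CPM in scramble replicate 1. The adaptors Irs1 and Irs2, which link the insulin and IGF receptors to PI3K, were also highest in pool 2, at 77.8 and 33.4 CPM against 56.0 to 65.1 and 25.9 to 27.6 in the other pools. Leaving out scramble replicate 1, pool 2 exceeded the mean of the others by 0.47 ± 0.03 for Pdpk1 and 0.39 ± 0.04 for Irs1 on the log2 scale, both called by edgeR. Mtmr7, a myotubularin lipid phosphatase gene, went the other way, at 1.83 CPM in pool 2 and 4.24 CPM in pool 3, with scramble at 1.18 to 1.43 CPM. So did the AKT regulators Trib2 and Trib1, at −0.40 and −0.38 for pool 2 against the others. In that comparison without scramble replicate 1, edgeR called 2 of 12 AKT regulator genes higher and 5 lower. Of 7 adaptor genes it called 4 higher and 1 lower, and of all genes 43.7%.

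**Figure D5:**
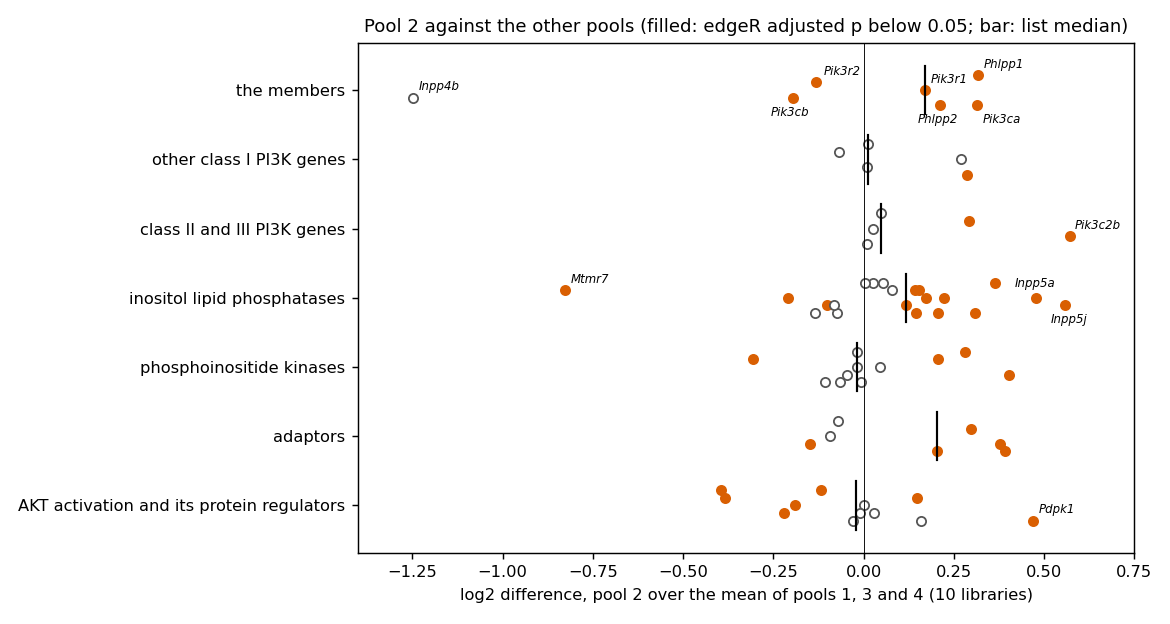
Log2 difference between pool 2 and the mean of pools 1, 3 and 4 (x axis) for the 7 tested members and 6 lists of pathway genes (rows), without scramble replicate 1; filled points have an edgeR adjusted p below 0.05, black bars are list medians. Of the members, 4 are called above 0 and 2 below, and Inpp4b is lowest at −1.25 and not called.

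The genes whose log2 CPM followed each member most closely over the 10 libraries without scramble replicate 1, out of 9852, were Hdac11 (Pearson r = 0.993) and Zfp180 (0.988) for Pik3cb, and Ypel5 (0.946) and Cttnbp2nl (0.919) for Phlpp2. For Pik3ca they were Polr3f (0.969) and Eya4 (0.966), for Pik3r1 Mtus1 (0.986) and Pcmtd1 (0.970), for Pik3r2 Tubb4b (0.986) and Plk1 (0.984), and for Phlpp1 Nacc2 (0.994) and Tdrp (0.993). The closest to Inpp4b, Rfc3 (0.905) and Edrf1 (0.900), rest on its few reads. These are the highest of many values over libraries that share their pools. With scramble replicate 1 added, r was 0.954 to 0.994 for Polr3f, Zfp180, Mtus1, Pcmtd1 and Cttnbp2nl. It fell to 0.834 for Tubb4b, 0.832 for Plk1, 0.786 for Hdac11, 0.776 for Eya4, 0.675 for Edrf1, 0.651 for Nacc2, 0.018 for Rfc3, −0.047 for Tdrp and −0.765 for Ypel5.

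In the annotation of build mm10, 6 of the 8 members overlap another annotated gene; Pik3cb and Inpp5d overlap none. Overlap was taken over whole gene spans, introns included and on either strand, and overlap of exons was not checked. The strand setting of the counting is not known here. Where exons do overlap, reads of a member and of the other gene may therefore not be told apart.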

How the data were processed

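mRNA was sequenced from 11 libraries of granulosa cells, made from 1.3 µg of RNA each with a stranded kit and read as single 75-base reads, per the labels' protocols. Each deposited file gives raw read counts by gene symbol for 1 library, which the authors had not normalized. Among other tools, the submitters' processing notes name TopHat2 and featureCounts 1.5.0-p2 with build mm10, and DESeq2; settings such as the strand of counting are not stated there. The 92 ERCC spike-in lines took 0.268% to 0.788% of counts and were left out. A second deposited table, for all pools together against scramble, lists per the file headers a mean normalized signal per gene, a log2 fold change and its standard error, a test score, and raw and adjusted p-values.

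CPM were counts per 1000000 reads in genes. Counts were scaled by TMM, filtered by filterByExpr, which left 14144 of 24490 genes, and tested two-sided by the quasi-likelihood F test of edgeR 4.0.16 (R 4.3.3), with Benjamini-Hochberg adjustment over all genes tested and a threshold of 0.05. All pools against scramble was fitted with 2 groups, so differences between pools count as error; the other comparisons came from 1 fit with 5 groups. Fold changes from edgeR are on the log2 scale. The scripts were tested on simulated counts. The replicate numbers were not used to pair the libraries in the main fits. Deviations of same-numbered libraries from their group means correlated at −0.0501 to 0.0786. Between pools of 2 libraries both replicates give the same value, and low values do not exclude a pairing.

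Merged exon lengths are from GENCODE M21 and promoters from RefSeq, both on GRCm38. Alternatives were DESeq2 1.42.0, limma-voom (limma 3.58.1), RLE scaling, other low-count filters, a correction of each library for its trend with transcript length, a replicate block and left-out libraries; fits without scramble replicate 1 combined with another choice, fits of the pools alone and the ratios were added after the data were seen. The members, the gene lists and the fits without scramble replicate 1 were chosen with earlier results of these data known. The 8 members and Akt1 are always named; listed pathway genes are named where called, with others named after their values were seen, and the 2 genes most like each member by Pearson r among genes averaging 3 or more on the log2 CPM scale. At this depth 3 counts, the limit that a count of 0 allows, are about 0.1 CPM.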

Additional observations from a re-analysis of the deposited data

Results flagged for a closer look

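The level of the 6 members above 5 CPM differed among the 4 Akt1 siRNA pools in the fit without scramble replicate 1, a difference between groups that were given the same kind of treatment. The edgeR adjusted p of this test was 6.21e-05 for Phlpp1, 0.000138 for Pik3ca, 0.00101 for Phlpp2, 0.00120 for Pik3cb, 0.00460 for Pik3r2 and 0.0116 for Pik3r1. Inpp4b, which passed the filter on low counts only through pool 4, where it was highest, had 0.0479, and 0.0547 without the filter, so its value supports nothing. In that fit 42.8% of all genes passed the same test. In the fit of all 11 libraries 0 of these 7 genes passed at the adjusted threshold, where 2.46% of all genes did. At an unadjusted edgeR p below 0.05 it was 1 of the 7, given without a share of all genes, so nothing is read from it. No single pool library of any member stood apart from the other 7 by Dixon's test. That test takes the libraries as 1 group, although they are 4 pools of 2. Differences between pools widen the range it uses, so it cannot exclude a deviating library.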

How the results depend on the processing

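The counts of members called moved mainly with scramble replicate 1. Leaving out 1 library at a time, the number of members called ranged from 0 to 1 for all pools against scramble, 0 to 3, 0 to 1, 0 to 5 and 0 to 4 for pools 1, 2, 3 and 4 against scramble, 0 to 7 for any difference among the pools, and 0 to 6 and 0 to 5 for pools 2 and 3 against the mean of the others. The upper end came without scramble replicate 1 in each case but the first, where leaving out scramble replicate 3 made Pik3cb called (edgeR adjusted p = 0.039). For pools 1 and 4 against the mean of the others it was 0 throughout. The upper ends of 4 for pool 4 and 7 for any difference include Inpp4b, which was tested only through pool 4. Among the 6 members above 5 CPM they were 3 and 6. Without scramble replicate 1, edgeR called 28.8%, 4.39%, 48.8% and 31.0% of all genes for pools 1 to 4 against scramble. It called 42.8% for any difference among the pools, and 43.7% and 39.6% for pools 2 and 3 against the others.

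With all libraries, DESeq2, the replicate block and the fit without both pool 2 libraries each called 1 member between all pools and scramble, which was Pik3cb. DESeq2 called 8.44% of genes with an adjusted p there. In the block, scramble replicate 3 is the only library numbered 3 and is fitted exactly. Comparisons with scramble in the block thus rest on scramble replicates 1 and 2. Length correction called 1 member in pool 1 and 1 in pool 4, Phlpp2 in both, where 9.05% and 10.8% of all genes were called. It called 1, Pik3cb, in pool 2 against the other pools, also with the block. The 1 call in pool 3 became 0 without the low-count filter, with the block, and without both libraries of pool 1, 2 or 4. In the pool libraries alone, 7 members differed among pools (Inpp4b included, which passed the filter through pool 4), where 48.6% of all genes did. For pools 2, 3 and 4 against the others 6, 5 and 1 differed, where 47.6%, 44.5% and 2.37% of all genes did. DESeq2 gave 6, 6, 5 and 1 for these comparisons.

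Without scramble replicate 1, a further choice gave counts near those of that fit. For all pools DESeq2 gave 1, where 4.71% of genes with an adjusted p were called. For pools 1, 2, 3 and 4 against scramble, DESeq2 gave 3, 1, 5 and 3, where 23.1%, 4.94%, 39.8% and 24.1% of genes with an adjusted p were called. Length correction gave 3, 1, 6 and 4, and no filter 4 (Inpp5d among them), 1, 5 and 3. The 4 for pool 4 with length correction include Inpp4b, which was tested only through pool 4. No shares of all genes are set beside these last counts, except 22.0% for pool 1 without a filter. Nothing about the members is therefore read from them. Among pools each of these and the replicate block gave 6, where DESeq2 called 34.0% of genes with an adjusted p. Against the others there were 6 for pool 2 (5 with length correction), 5 for pool 3 and, without a filter or with the block, 1 for pool 4. With the block, scramble replicate 3 is the only library numbered 3 and is fitted exactly. Comparisons with scramble then rest on scramble replicate 2 alone, so no counts are given for them.

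Signs turned only for values that were not called with all libraries, and all of the following are log2 fold changes against scramble unless stated. For Pik3r1 (all pools, then pools 1 to 4) length correction gave −0.095, −0.088, −0.025, −0.20 and −0.070, and with the block −0.082, −0.075, −0.012, −0.19 and −0.057. For pool 3 it was −0.0019 with RLE, −0.0019 with DESeq2 and −0.0086 without both pool 1 libraries. With scramble replicate 1 left out, all pools and pools 1, 3 and 4 gave −0.089, −0.098, −0.23 and −0.074 with DESeq2, −0.061, −0.052, −0.17 and −0.034 with length correction, −0.083, −0.096, −0.22 and −0.069 without a filter, and pool 3 gave −0.11 with the block. Pik3r2 (all pools, pools 1 and 4) then became 0.037, 0.026 and 0.029 with DESeq2, 0.034, 0.023 and 0.028 with length correction, 0.043, 0.027 and 0.033 without a filter, and 0.0061 for all pools in the fit without both pool 2 libraries. Phlpp1 (all pools, pools 1 and 4) became −0.14, −0.14 and −0.16 with DESeq2, −0.11, −0.10 and −0.12 with length correction, −0.13, −0.14 and −0.15 without a filter, −0.18, −0.18 and −0.20 with the block, and with all libraries was 0.043 (limma-voom) and 0.13 (block) in pool 3.

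Pik3ca over all pools became 0.0015 with limma-voom, 0.0028 and 0.017 without both libraries of pool 1 or 4, and 0.16 with the block, which gave 0.071, 0.11 and 0.046 in pools 1, 3 and 4. In pool 2 it was −0.17 with length correction and −0.20 with the block added, where Pik3cb was −0.0094. For pool 3 against the other pools Pik3ca was 0.052 without both pool 2 libraries. Inpp4b in pool 2 was 0.20 with the block and 0.11 with scramble replicate 1 left out as well; for pool 3 against the other pools it was −0.0068 in the latter fit and −0.0051 in the pools alone.

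With 1 library left out, Inpp4b ranged from −0.023 to 1.05 (pool 1), −0.97 to 0.33 (pool 2), −0.32 to 0.31 (pool 3 against the others). Phlpp1 ranged from −0.14 to 0.36 (all pools), −0.15 to 0.35 (pool 1), −0.38 to 0.13 (pool 3), −0.16 to 0.34 (pool 4). Pik3ca ranged from −0.20 to 0.15 (all pools), −0.29 to 0.063 (pool 1), −0.25 to 0.10 (pool 3), −0.31 to 0.040 (pool 4). Pik3r1 ranged from −0.093 to 0.33 (all pools), −0.10 to 0.31 (pool 1), −0.23 to 0.19 (pool 3), −0.076 to 0.34 (pool 4). Pik3r2 ranged from −0.076 to 0.033 (all pools), −0.089 to 0.022 (pool 1), −0.084 to 0.026 (pool 4). The cause of these changes was not tested. Scaling library sizes by TMM moved mean levels by at most 2.74%. Counts of 0 to 17 limit Inpp4b and Inpp5d.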
